A study of Mus musculus with 2 samples.

Results

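Gnas is the gene of Gs alpha, the alpha subunit of the stimulatory G protein, and it was followed here as 1 of 55536 annotated mouse genes and as its 24 annotated transcripts of 141767 in all. The gene and its transcripts were taken by gene symbol alone. No measured value entered that rule, but the choice was made with earlier results of these data known. In mm10 with GENCODE M21, Gnas (ENSMUSG00000027523.19) lies on the plus strand at chr2:174284320-174346744, a span of 62425 bases. By annotated type, 16 of its transcripts are protein-coding, 6 are processed transcripts and 2 retain an intron, and together they use 16 distinct start positions.

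Total RNA was sequenced from adrenal glands of female B6CASTF1/J mice, a hybrid of the B6 and CAST inbred strains, aged 36 days, with no treatment named in the labels. There were 2 libraries, replicates 2 and 1 of the only group, each from 300 ng of RNA by a directional kit after ribosomal RNA reduction, with ERCC spike-in RNAs added. The sample characteristics number the animals differently, but the library descriptions give the same animal number and both libraries carry the same donor identifier, so an SD given below may reflect libraries made from 1 animal. There was no contrast of conditions, so values are given per library with the mean ± SD (n = 2), and no test was made.

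A heterotrimeric G protein carries a signal from a receptor in the membrane to an enzyme inside the cell. Gs alpha, loaded with GTP by an active receptor, stimulates adenylyl cyclase, and the cyclic AMP that is made releases the catalytic subunits of protein kinase A. In the adrenal cortex the corticotropin receptor Mc2r acts through this route to drive steroid synthesis. The Gnas locus is imprinted and uses alternative starts whose own exons are spliced to a shared exon 2. The most upstream start makes Nesp, a chromogranin-like secretory protein of neuroendocrine cells, from the maternal allele. The next makes the long Gs alpha variant XL from the paternal allele. Exon 1A gives untranslated RNA from the paternal allele, and the antisense RNA Nespas also comes from the paternal allele. The Gs alpha start itself is used on both alleles in most tissues. Parental alleles were not analysed here.

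The joins to exon 2 from the last exon upstream of it differ between Gnas-211, Gnas-223, Gnas-212, Gnas-218 and Gnas-208. These joins hold the same bases of exon 2. They were read from GENCODE M21 transcripts (mm10, plus strand), 5′ to 3′, with the last 15 bases before exon 2 in capitals and the first 15 bases of exon 2 in lower case. That upstream exon is the first exon of each of these transcripts but Gnas-211, where it is the second. Gnas-202 is in the exon 1A class by its start, but its long exon runs through Gs alpha exon 1. The Gs alpha join thus does not tell Gnas-202 apart from the Gs alpha class.
Gnas-211 (Nesp): TTTTCATGGATAAAGgtgctggagagtctg
Gnas-223 (XL): GCCTGCTGCTTCTAGgtgctggagagtctg
Gnas-212 (exon 1A): GCGTCTCACTCACATgtgctggagagtctg
Gnas-218 (inner exon 1A start): AAGGAGCACCTAAGGgtgctggagagtctg
Gnas-208 (Gs alpha): GCCTGCTGCTGCTGGgtgctggagagtctg

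The 3 full-length Gs alpha transcripts differ at the join of exon 2 and exon 4. Gnas-208 includes exon 3 (chr2:174336747-174336791, 45 bases) and codes for 394 amino acids, the long form of Gs alpha. Gnas-207 lacks exon 3 and begins exon 4 at base 174341650, which is 3 bases upstream of the acceptor at base 174341653, and codes for 380 amino acids. Gnas-206 lacks exon 3, uses the downstream acceptor and codes for 379 amino acids. In the lines below, 15 bases of exon 2 and 15 bases of exon 4 are in lower case and the bases that differ between the transcripts, exon 3 or the 3 extra bases, are in capitals.
Gnas-208: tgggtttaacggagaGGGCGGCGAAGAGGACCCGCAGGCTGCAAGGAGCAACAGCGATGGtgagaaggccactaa
Gnas-207: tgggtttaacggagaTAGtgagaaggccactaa
Gnas-206: tgggtttaacggagatgagaaggccactaa

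**Figure D1:**
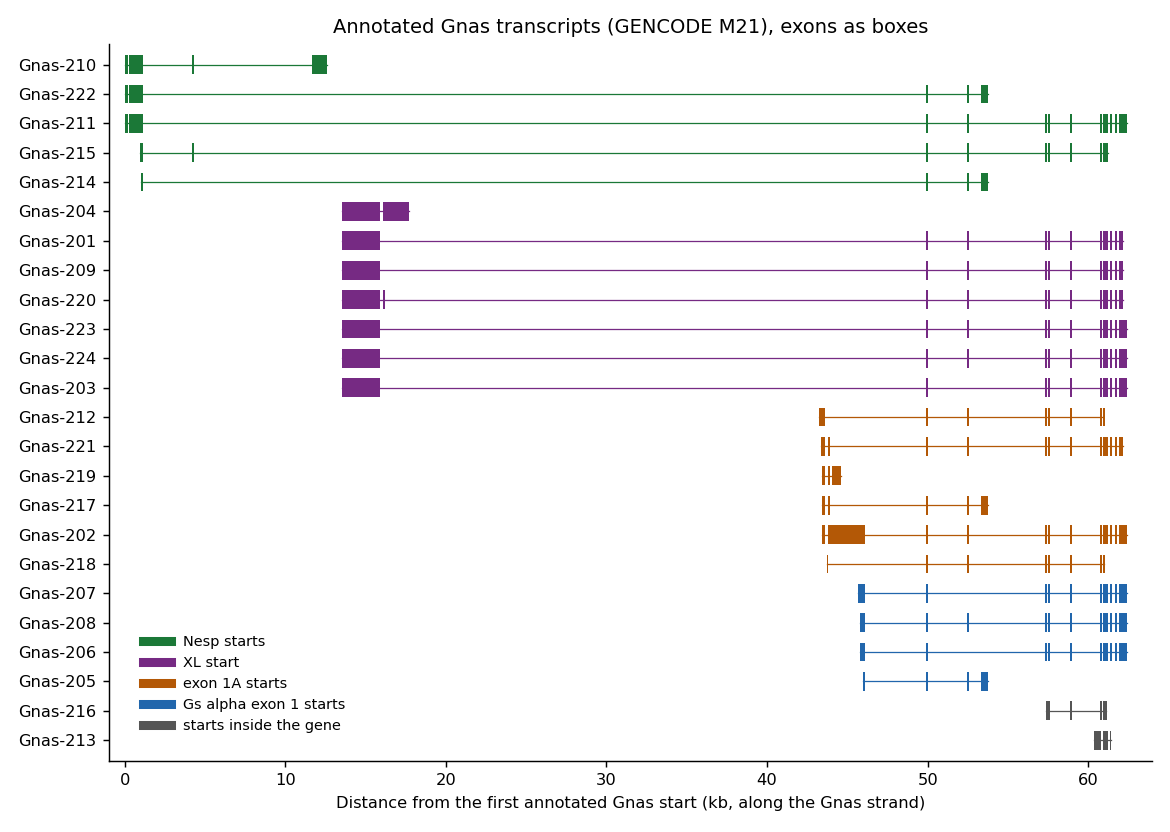
Exons (boxes) of the 24 annotated Gnas transcripts against distance in kb from the most upstream start, coloured by start class. The Nesp, XL, exon 1A and Gs alpha classes hold 5, 7, 6 and 4 transcripts, and 2 transcripts start inside the gene.

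Each library came with a gene table and 2 transcript tables. The gene table and the first transcript table come from a transcriptome alignment and are called alignment-derived below, and the second transcript table was made straight from the reads and is called read-derived. All give TPM, a transcript level per length that sums to a fixed total over a table. The libraries held 38701795 expected counts (replicate 2) and 35684781 (replicate 1). The 8 cortex markers were all detected, that is at 1 TPM or more in both libraries, with summed levels of 17481 TPM in replicate 2 and 17018 in replicate 1, and so were the 14 chromaffin cell markers and 5 adipocyte markers. The adipocyte markers summed to 1731 TPM in replicate 2 and 1760 in replicate 1, and their part in the Gnas values was not tested. The libraries stood apart in markers of skeletal muscle and liver. The 6 skeletal muscle markers summed to 1.65 TPM in replicate 2 and 251.5 in replicate 1, and the 4 liver markers to 1.5 TPM in replicate 2 and 30.3 in replicate 1. Each of the 10 was lower in replicate 2, where the liver marker Serpina1c was listed at 0.

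Gnas stood at 794 TPM in replicate 2 and 772 in replicate 1 (783 ± 15.9 TPM). Among 22015 nuclear protein-coding genes it ranked 15 in replicate 2 and 19 in replicate 1. It held 49889 expected counts in replicate 2, a share of 0.129% of the library (exact 95% interval 0.128% to 0.130%, counting error only), and 45294 in replicate 1, a share of 0.127% (0.126% to 0.128%). The deposited posterior SD of the gene count from read assignment was 0 in both libraries, unlike that of the transcripts below. The deposited interval of the gene TPM, whose coverage level is not stated, ran 774 to 789 in replicate 2 and 751 to 766 in replicate 1. It surrounds the posterior mean, which was 781 TPM in replicate 2 and 759 in replicate 1, and the TPM itself lay above its upper bound in both libraries.

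The log2 ratio of replicate 2 over replicate 1 (on TPM + 0.1) was 0.04 for Gnas. The 12280 genes with at least 200 summed counts had a median ratio of 0.04 and an SD of 0.37, and 19.0% of them had a smaller absolute ratio than Gnas. In that comparison 111 genes, or 0.904%, were 2-fold or more apart, and Gnas was not among them. For markers and gene lists, ratios were taken over genes at a mean of 1 TPM or more, whatever their counts. The skeletal muscle markers had a median log2 ratio of −7.17, and the 2 liver markers at that level one of −4.10. Their part in the Gnas values was not tested. In a whole gland, fewer cells of a type and less RNA per cell cannot be told apart.

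The read-derived table gave 1584 TPM in replicate 2 and 1552 in replicate 1 for the summed Gnas transcripts (1568 ± 22.4 TPM), from 54339 estimated counts in replicate 2 and 50131 in replicate 1. Levels in the tables were on different scales for the typical gene. The log2 ratio of the alignment-derived over the read-derived level was −1.002 for Gnas and had a median of −0.82 over 6138 genes at 10 TPM or more. For that reason transcripts are compared between the tables by their share of Gnas TPM. The 5 nuclear protein-coding genes nearest to Gnas in log2 TPM over the 2 libraries were Fabp4, a fatty acid carrier of adipocytes (distance 0.09 on the log2 scale), Aldoa, a glycolytic aldolase (0.10), Akr1b7, an aldose reductase of the adrenal cortex (0.11), Mgst1, a membrane glutathione transferase (0.17), and the ribosomal protein gene Rpl41 (0.17).

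Transcripts that begin at Gs alpha exon 1 carried nearly all of the Gnas level in the alignment-derived table. The starts of the 4 transcripts lie between bases 174330006 and 174330287. They summed to 765 TPM in replicate 2 and 741 in replicate 1 (752.8 ± 17.0 TPM), which is 96.3% of Gnas TPM in replicate 2 and 96.0% in replicate 1. In the read-derived table the same 4 transcripts had 78.7% of Gnas TPM in replicate 2 and 78.1% in replicate 1. The difference between the tables is larger than the spread between the libraries within either. In estimated counts the class was alike in both tables, with 47842 in replicate 2 and 43322 in replicate 1 in the alignment-derived table, and 47954 in replicate 2 and 43782 in replicate 1 in the read-derived table. These classes chain starts within 1 kb of each other, a distance chosen after the data were seen. Within 2 kb, the distance first set, the exon 1A starts join the Gs alpha starts, since the gap between them is 1983 bases, and the joint class held 97.3% ± 0.138 of Gnas TPM in the alignment-derived table and 98.1% in the read-derived table.

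Gnas-208, the long form with exon 3, led the alignment-derived table. It stood at 305 TPM (38.4% of Gnas TPM) in replicate 2 against 303 TPM (39.2%) in replicate 1, with deposited intervals of 290.1 to 309.9 TPM in replicate 2 and 287 to 308 TPM in replicate 1. Gnas-206, the short form with the downstream acceptor, followed at 278 TPM (35.0%) in replicate 2 against 258 TPM (33.4%) in replicate 1. Gnas-207, the short form with 3 more bases, stood at 175 TPM (22.0%) in replicate 2 against 176 TPM (22.8%) in replicate 1. The order of the 3 was the same in both libraries and their values did not overlap. The deposited isoform percent gave the same shares, with 38.41, 35.00 and 21.99 for Gnas-208, Gnas-206 and Gnas-207 in replicate 2, and 39.22, 33.39 and 22.84 in replicate 1.

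The read-derived table had another order. Gnas-207 led at 559 TPM (35.3%) in replicate 2 against 531 TPM (34.2%) in replicate 1. Gnas-208 followed at 482 TPM (30.4%) in replicate 2 against 480.0 TPM (30.9%) in replicate 1, and Gnas-206 stood at 203 TPM in replicate 2 and 198 in replicate 1 (12.8% in each). The log2 ratio of the share, alignment-derived over read-derived, was 0.34 for Gnas-208, 1.41 for Gnas-206 and −0.63 for Gnas-207, so the tables differed more on the short forms than on the long form. The short forms differ by 3 bases at 1 splice site and in where their annotated start lies. None of the 3 has a base that no other Gnas transcript holds, and the deposited posterior SD of the alignment-derived count was 291, 410 and 363 counts for Gnas-208, Gnas-206 and Gnas-207 in replicate 2 and 278, 327 and 282 counts in replicate 1. The counts themselves were 19083 for Gnas-208, 17166 for Gnas-206 and 11418 for Gnas-207 in replicate 2, against 17651, 14833 and 10742 in replicate 1. A leading transcript that differs between the tables was common, at 36.9% of 1283 genes with 10 or more transcripts and 10 TPM or more (474 genes), and Gnas was among them.

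**Figure D2:**
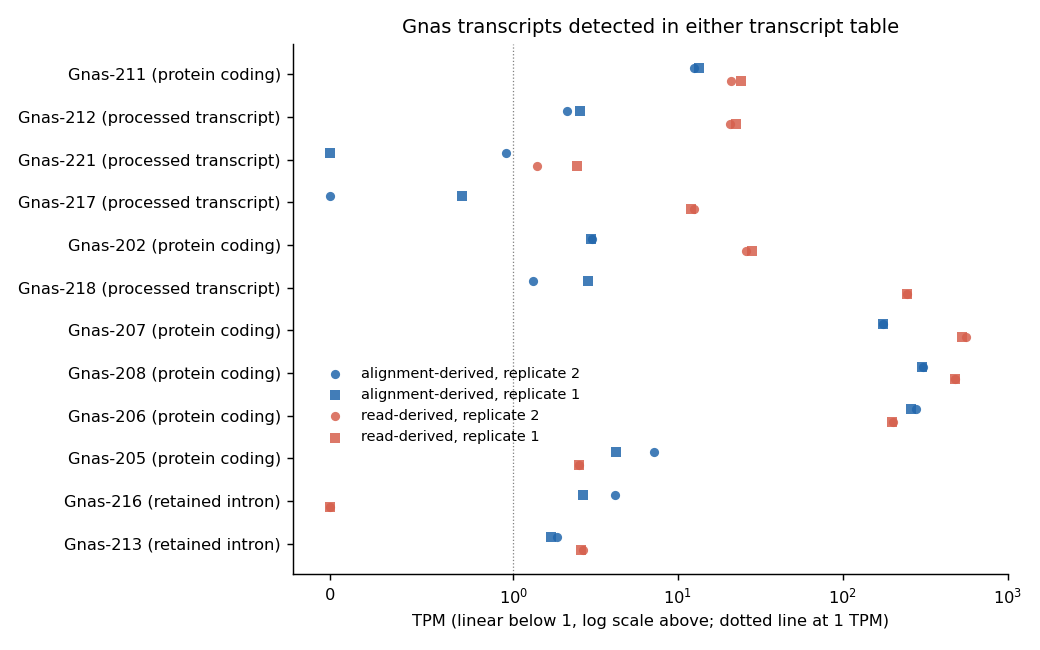
TPM (linear below 1, log scale above) of the 12 Gnas transcripts at 1 TPM or more in both libraries in either table, with circles for replicate 2, squares for replicate 1, blue for the alignment-derived and red for the read-derived table. Gnas-208, Gnas-206 and Gnas-207 are the highest 3 in blue, and Gnas-218 is near 2 TPM in blue and near 246 TPM in red.

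Among the 3 full-length Gs alpha transcripts, the tables were closer on inclusion of exon 3 than on the choice of acceptor. Of the summed TPM of the 3 full-length Gs alpha transcripts, the transcript with exon 3 held 40.3% in replicate 2 and 41.1% in replicate 1 in the alignment-derived table (40.7% ± 0.588), and 38.7% in replicate 2 and 39.7% in replicate 1 in the read-derived table (39.2% ± 0.671). The short forms together exceeded the long form in both libraries by both tables, at 453 TPM in replicate 2 and 434 in replicate 1 in the alignment-derived table and 762.2 TPM in replicate 2 and 730 in replicate 1 in the read-derived table. Of the short forms, the one with the upstream acceptor and 3 more bases held 38.6% in replicate 2 and 40.6% in replicate 1 in the alignment-derived table (39.6% ± 1.44), and 73.4% in replicate 2 and 72.8% in replicate 1 in the read-derived table (73.1% ± 0.392). In that share the tables differed by far more than the libraries did within either table. The tables were farther apart on exon 3 when all Gnas transcripts that span it were counted, those of other starts included. The share with exon 3 was then 42.4% in replicate 2 and 43.4% in replicate 1 in the alignment-derived table and 51.8% in replicate 2 and 52.9% in replicate 1 in the read-derived table. The fourth transcript of the class, Gnas-205, ends after exon 3 and codes for 91 amino acids, and stood at 7.15 TPM in replicate 2 and 4.21 in replicate 1 in the alignment-derived table and 2.50 TPM in replicate 2 and 2.51 in replicate 1 in the read-derived table.

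**Figure D3:**
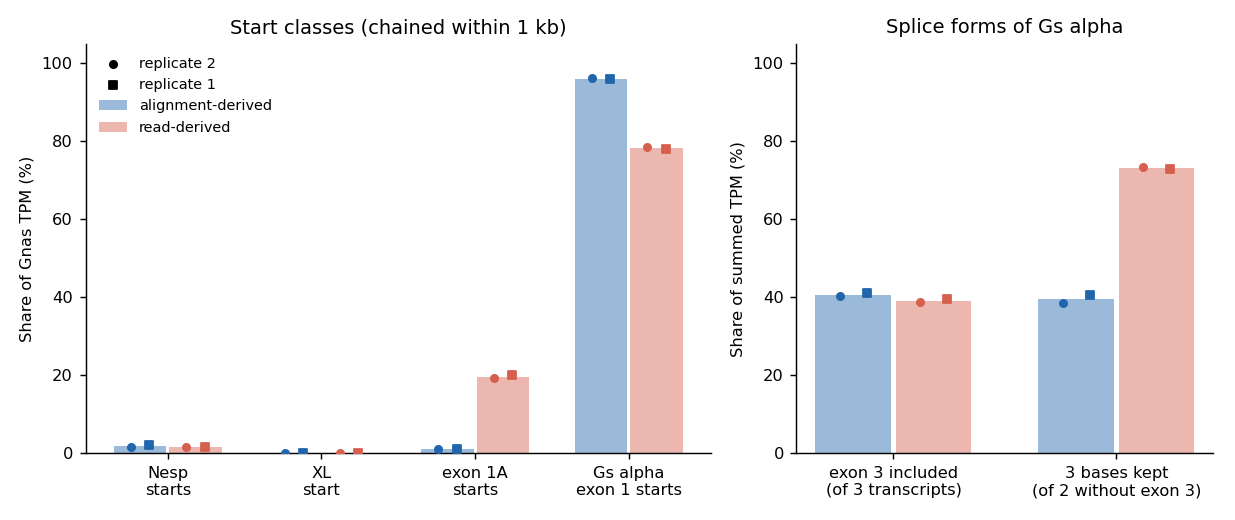
Left, share of Gnas TPM (%) by start class, and right, share of exon 3 among the 3 full-length Gs alpha transcripts and of the form with 3 extra bases among the 2 without exon 3. Bars are means, circles replicate 2 and squares replicate 1, blue alignment-derived and red read-derived. The exon 1A class, Gnas-218 included, is at 1.17% in blue and 19.7% in red. Exon 3 is near 40% in both, and the 3-base form is at 39.6% in blue and 73.1% in red.

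The Nesp class, 5 transcripts that start between bases 174284320 and 174285358, had 13.7 TPM in replicate 2 and 16.3 in replicate 1 in the alignment-derived table (14.98 ± 1.86 TPM), which is 1.72% of Gnas TPM in replicate 2 and 2.11% in replicate 1. In the read-derived table it had 25.7 TPM in replicate 2 and 25.2 in replicate 1 (1.62% in each). The class sum was lower in replicate 2 in the alignment-derived table (log2 ratio −0.25) and close to level in the read-derived table (0.03). The minor transcripts Gnas-214 and Gnas-215, given below, enter these sums. Gnas-211, the full transcript that codes for Nesp (253 amino acids), made up most of the class. Its TPM was lower in replicate 2 in both tables. It had 12.5 TPM in replicate 2 and 13.4 in replicate 1 in the alignment-derived table. In the read-derived table it had 20.97 TPM in replicate 2 and 24.2 in replicate 1. Its counts were 1144 in replicate 2 and 1141 in replicate 1 by alignment, and 1218 in replicate 2 and 1322 in replicate 1 in the read-derived table.

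Nesp is known from neuroendocrine cells, so markers of chromaffin cells, the neuroendocrine cells of the adrenal medulla, are set beside it. Of the 14 markers 12 were lower in replicate 2, the median log2 ratio was −0.17 (−0.18 in the read-derived table), and their summed level was 1365 TPM in replicate 2 and 1766 in replicate 1. The granins Chga and Chgb stood at 381 and 395 TPM in replicate 2, against 465 and 560 TPM in replicate 1 (log2 ratios −0.29 and −0.50). The part of the medulla in the Nesp values was not tested. The 8 cortex markers had a median log2 ratio of 0.01 (−0.0023 in the read-derived table).

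The 4 other Nesp-class transcripts were low or listed at 0. Gnas-210, which ends before the XL exon and also codes for 253 amino acids, had 0.28 TPM in replicate 2 and 0.46 in replicate 1 in the alignment-derived table and 0.73 TPM in replicate 2 and 0.98 in replicate 1 in the read-derived table. Gnas-222 was listed at 0 in both libraries and both tables. Gnas-214 had 0.42 TPM in replicate 2 and 2.36 in replicate 1 in the alignment-derived table and was listed at 0 in the read-derived table. Gnas-215 had 0.46 TPM in replicate 2 and 0.10 in replicate 1 in the alignment-derived table, and 4.04 TPM in replicate 2 and 0 in replicate 1 in the read-derived table. Gnas-214 and Gnas-215 were the Gnas transcripts 2-fold or more apart between the libraries on TPM + 1, which makes 1 of 11 compared in the alignment-derived table, beside 4.31% of 26073 transcripts, and 1 of 12 in the read-derived table, beside 9.11% of 35337.

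The XL class was near the bottom of the locus. Its 7 transcripts share a start at base 174297859 and summed to 0.89 TPM in replicate 2 and 0.83 in replicate 1 in the alignment-derived table. That is 0.112% of Gnas TPM in replicate 2 and 0.108% in replicate 1, from 127 expected counts in replicate 2 and 109 in replicate 1. In the read-derived table they summed to 1.64 TPM in replicate 2 and 1.51 in replicate 1, from 152 estimated counts in replicate 2 and 132 in replicate 1. No member reached 1 TPM in either library by either table. The highest in the alignment-derived table was Gnas-204, which codes for 876 amino acids within the XL region, at 0.27 TPM in replicate 2 and 0.29 in replicate 1. Gnas-220, a processed transcript, had 0.26 TPM in replicate 2 and 0.20 in replicate 1. Gnas-223 and Gnas-224 have the same sequence and differ in the annotated coding frame, which is 1133 amino acids in Gnas-223, the XL protein, and 725 in Gnas-224, and the alignment-derived table gave them equal values of 0.18 TPM each in replicate 2 and 0.17 TPM each in replicate 1. Gnas-201 and Gnas-209 are a second such pair and stood at 0.00 TPM in the alignment-derived table and at most 0.09 TPM in the read-derived table. Gnas-203, the XL transcript without exon 3, was listed at 0 in both tables. The class holds 3947 exonic bases that no other start class has.

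The class named exon 1A, formed by chaining starts within 1 kb, was the start class whose share differed most between the tables. It has 6 transcripts that start between bases 174327570 and 174328023. In the alignment-derived table it had 8.83 TPM in replicate 2 and 9.52 in replicate 1 (9.18 ± 0.488 TPM), which is 1.11% of Gnas TPM in replicate 2 and 1.23% in replicate 1, and in the read-derived table it had 307 TPM (19.4%) in replicate 2 against 311 TPM (20.03%) in replicate 1. The counts behind these were 616 in replicate 2 and 556 in replicate 1 in the alignment-derived table, and 4873 in replicate 2 and 4820 in replicate 1 in the read-derived table. Between the libraries the class was close to level in both tables, with log2 ratios of −0.11 in the alignment-derived and −0.02 in the read-derived table.

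In TPM, Gnas-218 made up most of the difference between the tables in the exon 1A class. In counts, the tables were farther apart on Gnas-202, given below. Gnas-218 is a processed transcript of 607 bases that starts at base 174328023 and has 85 bases in no other Gnas transcript. It belongs to the class by its start position, and its first exon lies downstream of that of Gnas-212, with a different join to exon 2. It had 1.32 TPM (0.166% of Gnas TPM) in replicate 2 against 2.86 TPM (0.371%) in replicate 1 in the alignment-derived table, and 247 TPM (15.6%) in replicate 2 against 246 TPM (15.8%) in replicate 1 in the read-derived table. The counts behind it were 25.9 in replicate 2 and 52.4 in replicate 1 by alignment, and 1868 in replicate 2 and 1750 in replicate 1 in the read-derived table. The length used for the scale also differed, at 508 effective bases in the alignment-derived table and 278 in the read-derived table in both libraries, so a read weighs more in the read-derived TPM of this short transcript. Which table is nearer to the RNA in the gland was not tested.

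Gnas-202 starts at exon 1A, has a long exon that runs through Gs alpha exon 1 and codes for 394 amino acids like Gnas-208. It had 3.00 TPM in replicate 2 and 2.97 in replicate 1 in the alignment-derived table, and 25.9 TPM in replicate 2 and 28.2 in replicate 1 in the read-derived table. Its counts were 441 in replicate 2 and 407 in replicate 1 by alignment, and 2522 in replicate 2 and 2572 in replicate 1 in the read-derived table. Gnas-202 has 1293 bases of its own. Gnas-212, which starts 5′ of the others, had 2.12 TPM in replicate 2 and 2.55 in replicate 1 in the alignment-derived table and 20.8 TPM in replicate 2 and 22.4 in replicate 1 in the read-derived table. Gnas-217 had 0 TPM in replicate 2 and 0.72 in replicate 1 in the alignment-derived table, and 12.5 TPM in replicate 2 and 11.9 in replicate 1 in the read-derived table. These were all higher in the read-derived table. Gnas-221 had 0.96 TPM in replicate 2 and 0 in replicate 1 in the alignment-derived table, and 1.39 TPM in replicate 2 and 2.45 in replicate 1 in the read-derived table. Gnas-219, which ends within the exon 1A region, went the other way, with 1.43 TPM in replicate 2 and 0.42 in replicate 1 in the alignment-derived table and 0 in both libraries in the read-derived table.

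Both transcripts that start inside the gene retain an intron. Gnas-216 starts at base 174341704 and had 4.15 TPM in replicate 2 and 2.64 in replicate 1 in the alignment-derived table and was listed at 0 in the read-derived table. Gnas-213 starts at base 174344650 and had 1.84 TPM in replicate 2 and 1.70 in replicate 1 in the alignment-derived table, and 2.65 TPM in replicate 2 and 2.57 in replicate 1 in the read-derived table. With these, every annotated Gnas transcript has been given. By alignment, 10 of the 24 were detected (6 protein-coding, 2 processed and 2 with a retained intron), 10 were above 0 but not detected and 4 stood at 0.00 TPM in both libraries. By the read-derived table, 11 were detected (6 protein-coding, 4 processed and 1 with a retained intron), 8 were above 0 but not detected and 5 were at 0. The tables shared 9 detected transcripts. The deposited TPM intervals of the 2 libraries overlapped for all 24.

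Below the 3 Gs alpha transcripts the order of levels was loose. In the alignment-derived table Gnas-211 came next, then Gnas-205, Gnas-216, Gnas-202, Gnas-212, Gnas-218 and Gnas-213. The ranges over the 2 libraries overlapped between Gnas-216 and Gnas-202, between Gnas-212 and Gnas-218, and between Gnas-218 and Gnas-213, so these neighbours did not differ beyond their spread. In the read-derived table Gnas-218 stood between Gnas-208 and Gnas-206, and the ranges of Gnas-211 and Gnas-212 overlapped. Protein-coding transcripts held 98.5% of Gnas TPM in replicate 2 and 98.6% in replicate 1 in the alignment-derived table, against 82.0% in replicate 2 and 81.6% in replicate 1 in the read-derived table.

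Gnas was set beside other genes with many transcripts to see how far its differences between the tables are usual. Of 7 Gnas transcripts with 1% or more of the gene in either table, 4 had a share 2-fold or more apart between the tables, where 45.5% of 30265 such transcripts of all genes did. Of the 4, Gnas-206 had the higher share in the alignment-derived table, and Gnas-212, Gnas-202 and Gnas-218 had the lower share there. The share of the leading transcript was 38.8% for Gnas in the alignment-derived table and 34.8% in the read-derived table, where the medians over the 1283 genes were 45.8% and 41.0%. By alignment, 34.5% of those genes had a lower leading share than Gnas. Of the 1283 genes 58 had at least as many annotated transcripts.

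The RefSeq promoter table (GRCm38.p6, the build of mm10) held windows for the Nesp, exon 1A and Gs alpha starts, from 250 bases before to 50 bases after the start. No window of the XL start is shown, and the start of Gnas-218 lies downstream of the exon 1A window. Any relation of these sequences to transcript level was not tested. All are on the plus strand, 5′ to 3′. Capitals mark matches on either strand to the cyclic AMP response element core TGACG (as CGTCA on the other strand), the GC box GGGCGG (as CCGCCC), and CTTTATAGGG, the longest run shared by the Nesp and exon 1A windows that holds the TATA motif TATAAA, here read on the other strand.
Nesp, chr2:174284070-174284369: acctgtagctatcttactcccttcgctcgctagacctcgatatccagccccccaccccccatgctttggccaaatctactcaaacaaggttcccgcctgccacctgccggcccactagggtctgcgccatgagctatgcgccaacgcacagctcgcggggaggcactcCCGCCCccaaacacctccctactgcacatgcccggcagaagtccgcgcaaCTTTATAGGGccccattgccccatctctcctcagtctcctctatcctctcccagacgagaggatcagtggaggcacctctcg
Exon 1A, chr2:174327518-174327817: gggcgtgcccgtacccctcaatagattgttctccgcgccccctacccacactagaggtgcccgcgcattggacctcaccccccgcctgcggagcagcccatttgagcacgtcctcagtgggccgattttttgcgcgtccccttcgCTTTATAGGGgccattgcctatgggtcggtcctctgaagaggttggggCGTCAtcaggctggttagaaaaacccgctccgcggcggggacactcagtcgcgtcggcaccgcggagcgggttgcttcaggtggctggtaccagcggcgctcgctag
Gs alpha, chr2:174329756-174330055: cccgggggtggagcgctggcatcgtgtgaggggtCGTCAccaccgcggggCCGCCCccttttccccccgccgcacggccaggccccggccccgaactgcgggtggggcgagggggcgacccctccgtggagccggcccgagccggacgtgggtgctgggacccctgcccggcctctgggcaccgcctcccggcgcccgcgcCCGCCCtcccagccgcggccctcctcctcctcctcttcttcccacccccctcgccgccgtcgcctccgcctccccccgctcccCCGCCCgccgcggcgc

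Among the 3 windows shown there were 16 CpG at Nesp, 28 at exon 1A and 40 at Gs alpha, where the median of 32851 windows was 7. Fewer CpG than in these windows were found in 67.0%, 85.8% and 96.1% of all windows. GC content was 61.0%, 64.3% and 81.7%. The GC box letters occurred 1 time in the Nesp window and 3 times in the Gs alpha window, and in 35.7% of all windows. The element core TGACG occurred 1 time each in the exon 1A and Gs alpha windows and in 20.8% of all windows. The full element TGACGTCA (1.79% of windows) and CGCATGCG (1.87%) were in none of the 3. The TATA letters occurred at Nesp and exon 1A, and in 13.6% of all windows. The run CTTTATAGGG, searched for after both windows had been seen, ends 22 bases before the Nesp start and 95 bases before the exon 1A start shown, and is in 8 of all windows (0.0244%), 3 of them Gnas windows, since a further exon 1A window overlaps the one shown. A match describes letters and says nothing of a factor.

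Genes annotated on the other strand of the locus were low. Nespas, the antisense RNA at the Nesp start (minus strand, chr2:174281237-174295436), stood at 0.13 TPM in replicate 2 and 0.19 in replicate 1, with 11 expected counts in replicate 2 and 12 in replicate 1. In the read-derived table it had 0.30 TPM in replicate 2 and 0.31 in replicate 1. Gm20721, annotated as protein-coding on the minus strand across Gs alpha exons (chr2:174330319-174346712), had 0.78 TPM in replicate 2 and 0.68 in replicate 1, with 42 counts in replicate 2 and 34 in replicate 1. In the read-derived table Gm20721 was detected, at 1.75 TPM in replicate 2 and 1.56 in replicate 1, with 55 counts in replicate 2 and 46 in replicate 1. Whether the counting used strand is not given in the sources used here, so these levels are uncertain. The small RNA genes Gm27849, Gm27869 and Gm27899 within the locus and Mir296 and Mir298 upstream of it were listed at 0 in both libraries.

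Of 9 genes that neighbour the locus 7 were detected, with a median log2 ratio of 0.01. Atp5e, a small subunit of ATP synthase, was the highest at 181 TPM in replicate 2 and 179 in replicate 1. The lysosomal protease gene Ctsz had 53.1 TPM in replicate 2 and 51.4 in replicate 1, and Prelid3b, a lipid transfer protein of mitochondria, 36.6 TPM in replicate 2 and 39.3 in replicate 1. Npepl1, an aminopeptidase, had 20.96 TPM in replicate 2 and 18.4 in replicate 1. Nelfcd, a subunit of the negative elongation factor, had 16.7 TPM in each, and Stx16, a syntaxin whose deletions affect imprinting of this locus in humans, had 14.7 TPM in replicate 2 and 14.5 in replicate 1. Edn3, the gene of the peptide endothelin 3, had 3.83 TPM in replicate 2 and 5.32 in replicate 1. Tubb1, a tubulin of platelets, and Zfp831 stayed below 1 TPM in both libraries. All were below Gnas.

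Gnas was the highest of the 16 G alpha genes. Of these 11 were detected. The median level was 10.3 TPM over all 16, and the median log2 ratio between the libraries was 0.09 over the 11. The inhibitory subunit genes Gnai2 and Gnai3 followed, at 67.1 and 48.3 TPM in replicate 2 and 65.6 and 44.5 TPM in replicate 1, and then Gna12 at 47.2 TPM in replicate 2 and 39.5 in replicate 1. Gnal, whose product Golf also stimulates adenylyl cyclase, had 0.28 TPM in replicate 2 and 0.22 in replicate 1.

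The partners of Gs alpha were detected at lower levels. All 5 G beta genes were detected (median 13.2 TPM, median log2 ratio 0.17), led by Gnb2 at 194 TPM in replicate 2 and 176 in replicate 1, Gnb1 at 135 TPM in replicate 2 and 119 in replicate 1, and Gnb5, a beta subunit that pairs with regulators of the RGS family, at 14.8 TPM in replicate 2 and 11.5 in replicate 1. Of 12 G gamma genes 9 were detected, with a median of 4.203 TPM over all 12 and a median log2 ratio of −0.09 over the 9. They were led by Gng5 at 77.0 TPM in replicate 2 and 84.8 in replicate 1, Gng12 at 28.7 TPM in replicate 2 and 30.3 in replicate 1, and Gng10 at 10.1 TPM in replicate 2 and 8.25 in replicate 1. Each of the 7 chaperones and regulators was detected (median 15.4 TPM, median log2 ratio 0.02). Ric8b, the chaperone that folds the Gs class of alpha subunits, had 8.88 TPM in replicate 2 and 9.31 in replicate 1, and Ric8a, which serves the other classes, 18.4 TPM in replicate 2 and 17.4 in replicate 1. The arrestin Arrb1 had 15.5 TPM in replicate 2 and 16.1 in replicate 1. Rgs2, a regulator best known for acting on Gq, differed most, at 159 TPM in replicate 2 and 88.7 in replicate 1 (log2 ratio 0.84).

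Most receptor genes of the Gs-coupled list were below 1 TPM. Of 23 receptor genes 6 were detected, and the median level of the list was 0.165 TPM. The corticotropin receptor gene Mc2r led at 101 TPM in replicate 2 and 95.3 in replicate 1, followed by the beta-adrenergic receptor gene of fat, Adrb3, at 12.7 TPM in replicate 2 and 12.5 in replicate 1, and Adcyap1r1, the receptor of the peptide PACAP, at 7.22 TPM in replicate 2 and 7.88 in replicate 1. Of 10 adenylyl cyclase genes 6 were detected, with a median of 2.08 TPM over the list. Adcy9 had 23.3 TPM in replicate 2 and 17.7 in replicate 1, Adcy3 14.3 TPM in replicate 2 and 14.8 in replicate 1, and Adcy6 13.3 TPM in replicate 2 and 14.4 in replicate 1. The median log2 ratio was −0.11 for the cyclases (−0.05 in the read-derived table) and −0.03 for the receptors, for which the sign turned in the read-derived table (0.05).

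All 6 subunit genes of protein kinase A, the enzyme that cyclic AMP activates, were detected (median 63.6 TPM, median log2 ratio −0.02). The regulatory subunit genes Prkar2b and Prkar1a had 127 and 128 TPM in replicate 2 and 133 and 129 TPM in replicate 1, and the catalytic subunit gene Prkaca had 92.5 TPM in replicate 2 and 93.6 in replicate 1. Within these lists the log2 ratio of replicate 2 over replicate 1 ran from −0.73, for the gamma subunit gene Gngt2, to 0.84, for Rgs2. This holds for members at a mean of 1 TPM or more, of which none was 2-fold apart, and lower members were left out. The share over all genes, 0.904%, is at another filter, 200 or more summed counts.

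**Figure D4:**
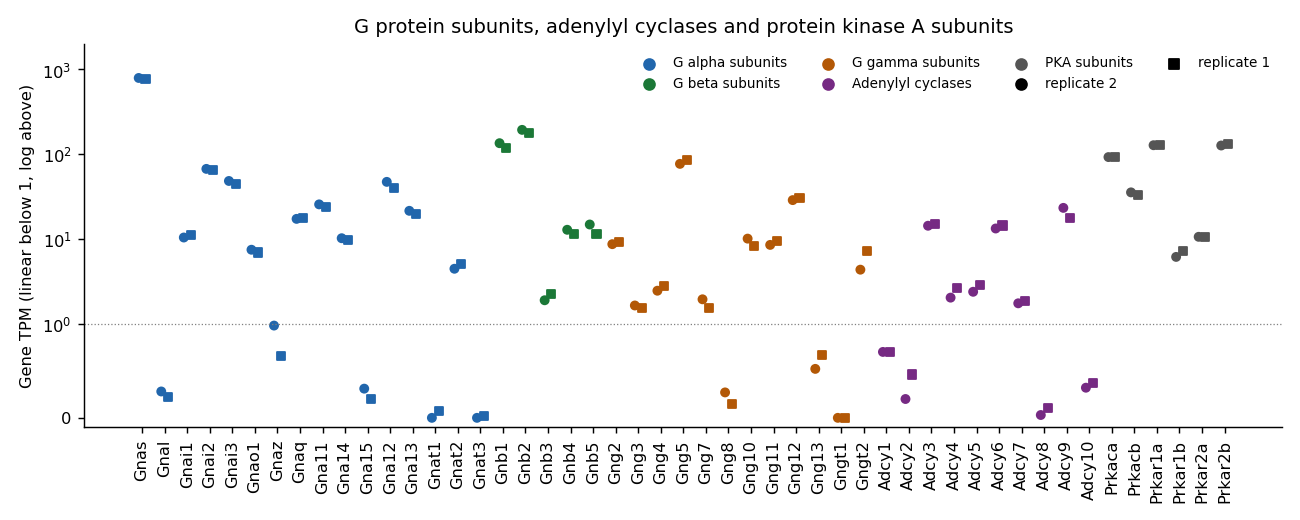
Gene TPM (linear below 1, log scale above, dotted line at 1) of G protein subunits, adenylyl cyclases and protein kinase A subunits, with circles for replicate 2 and squares for replicate 1, coloured by list. Gnas, at 794 TPM in replicate 2 and 772 in replicate 1, lies above every other gene plotted, and the cyclases lie below 24 TPM.

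**Figure D5:**
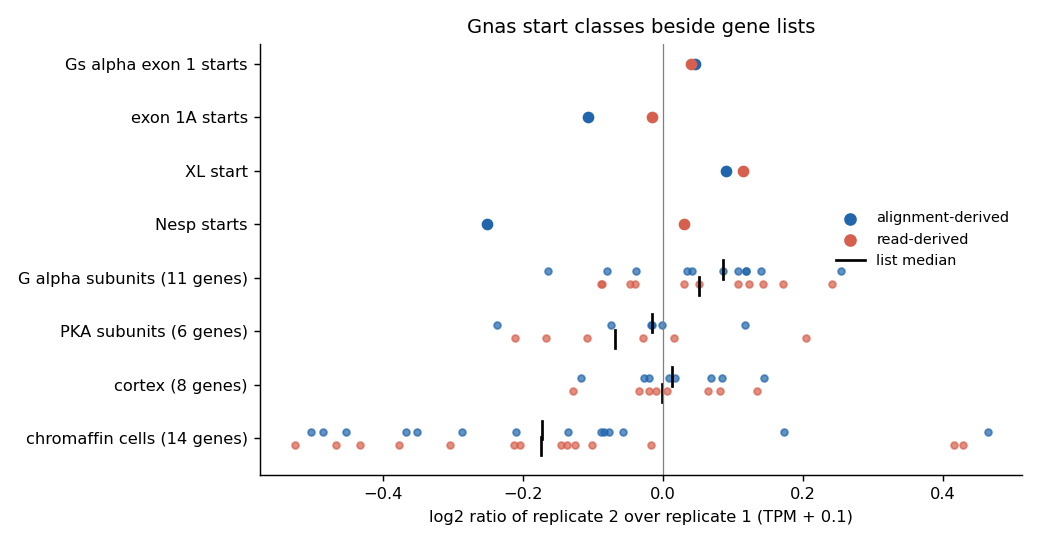
Log2 ratio of replicate 2 over replicate 1 (TPM + 0.1) of the Gnas start classes and of gene lists, blue from the alignment-derived and red from the read-derived table, with black ticks at list medians. The Nesp class is at −0.25 in blue and 0.03 in red, the chromaffin median is −0.17 and the cortex median 0.01 in blue and −0.0023 in red.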

How the data were processed

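Members and gene lists were chosen with earlier results of these data known. Total RNA-seq of 2 adrenal libraries of 1 group was described, with no comparison of conditions. The deposited gene tables and alignment-derived transcript tables give expected counts and TPM, per the file headers, under RSEM-style column names. The read-derived tables give estimated counts and TPM under kallisto-style names, per the file headers. The text beside the deposited files gives mm10, GENCODE M21, a transcriptome alignment for the gene table and the alignment-derived table, and the reads for the read-derived table. Aligner, versions, filters and strand setting: not given in the sources used here. Isoform percent, as deposited, divides a gene's TPM among its transcripts. Interval bounds for TPM, as deposited, were treated as a signal. The deposited effective length and posterior SD of the count were used as given.

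From these, levels are means and SDs over 2 libraries, detection is 1 TPM in both, and ratios are replicate 2 over replicate 1 of TPM + 0.1 (TPM + 1 for transcripts). Over all features, genes at 200 or more summed counts and transcripts at a mean of 1 TPM or more were compared. Median ratios of lists and markers use members at a mean of 1 TPM or more. Totals were 38701795 and 35684781 expected counts and 37598352 and 34946406 estimated counts in replicates 2 and 1. Starts were chained within 2 kb and, after the data were seen, 1 kb. Named are all Gnas transcripts, overlapping and 9 neighbouring genes, the 5 genes nearest in level, and the 3 highest of each list. Gnal, Ric8b, Gngt2 and the markers named were added after their values were seen. Exact intervals are Clopper-Pearson and cover counting error only. TMM scaling used edgeR 4.0.16 and size factors DESeq2 1.42.0 in R 4.3.3 on rounded counts. Other steps used Python 3.11.15, numpy 2.4.6, pandas 2.3.3, scipy 1.17.1 and matplotlib 3.10.9. The ratio step was run on simulated counts with planted changes and counting error alone. That run holds no spread between libraries, so it does not measure how the step performs on these data. Alternatives were the other table, the posterior mean, other scalings, pseudocounts, filters, class rules and single libraries.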

Additional observations from a re-analysis of the deposited data

How the results depend on the processing

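No paired analysis was possible because the libraries form 1 group. The Gnas level of 783 TPM was 1568 TPM in the read-derived table and 2509.5 TPM when nuclear protein-coding genes were scaled to the same total, and 771.75 to 794.25 TPM with either library alone. The log2 ratio of 0.04 was −0.0015 with TMM scaling and 0.0026 with DESeq2 size factors. The 10 detected transcripts were 18 at 0.1 TPM, 20 with no filter and 11 with either library alone. The Gs alpha share of 97.3% with starts chained within 2 kb was 98.1% in the read-derived table, 97.1% by posterior means, 97.0% by expected counts, 98.0% over protein-coding transcripts and by the first coding exon alike, 96.1% with starts chained within 1 kb and 78.4% with that chaining in the read-derived table, and 97.2% to 97.4% with either library alone. The leading share of 38.8% (Gnas-208) was 34.8% (Gnas-207) in the read-derived table, where Gnas-208 had 30.7%, and 38.4% to 39.2% with either library alone. Of the other values of these results under an alternative, 14 moved by less than the limit set for them. The limit was the spread between the libraries, the counting error for the log2 ratio, and 1.5-fold for counts. For single transcripts, classes, splice shares and list medians, single libraries aside, 35 stayed within the spread between the libraries (within 0.1 for list medians) and 27 did not. The receptor and cortex list medians changed sign in the read-derived table. The causes were not tested. With 2 libraries an SD is imprecise, reads shared between transcripts limit every transcript level, and levels under 1 TPM rest on few counts.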

Other observations

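The 12 exons of Gnas-208 give a scale for the splice events described. Exon 1 has 346 bases (chr2:174330089-174330434), exon 2 has 73 (chr2:174334212-174334284), exon 3 has 45, and exon 4 has 55, or 58 with the upstream acceptor. The last exon has 471 bases (chr2:174346242-174346712). The Gs alpha class holds 2298 exonic bases and none of them is outside the other start classes, while the Nesp, XL and exon 1A classes have 2059, 3947 and 2355 bases of their own. The class with the highest level thus has no exonic base of its own in the annotation. Its exon 1 is overlapped by Gnas-202 of the exon 1A class, which stood at 3.00 TPM in replicate 2 and 2.97 in replicate 1 in the alignment-derived table, and at 25.9 and 28.2 TPM in the read-derived table. Where the reads fall was not examined.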
